A study of Mus musculus with 17 samples.

Results

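The genes described are 34 genes of glucose breakdown: the enzymes and transporters of glycolysis, the lactate and pyruvate branch at its end, and the pentose phosphate pathway. They were taken by gene symbol from a list, and all 34 were found among the 46880 genes listed in all 3 deposited count tables. By role they are 5 genes of glucose uptake and phosphorylation (Slc2a1, Slc2a3, Hk1, Hk2, Hk3), 7 of upper glycolysis (Gpi1, Pfkl, Pfkm, Pfkp, Aldoa, Aldoc, Tpi1) and 3 PFKFB regulators (Pfkfb2, Pfkfb3, Pfkfb4). The others are 6 of lower glycolysis (Gapdh, Pgk1, Pgam1, Eno1, Eno3, Pkm), 6 of the lactate and pyruvate branch (Ldha, Ldhb, Slc16a1, Slc16a3, Pdk1, Pdk3) and 7 of the pentose phosphate pathway (G6pdx, Pgls, Pgd, Tkt, Taldo1, Rpia, Rpe).

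Glycolysis splits glucose into pyruvate and yields ATP without oxygen, and lactate dehydrogenase turns pyruvate into lactate, which leaves the cell through monocarboxylate transporters. The pentose phosphate pathway branches off after hexokinase. Its oxidative arm (G6pdx, Pgls, Pgd) makes NADPH, and its non-oxidative arm (Tkt, Taldo1, Rpia, Rpe) exchanges sugars between ribose 5-phosphate, needed for nucleotides, and glycolysis. Many glycolytic genes are textbook targets of the hypoxia-inducible factor HIF, and several pentose phosphate genes are targets of NRF2, a factor of the oxidative stress response. Blood stem cells are known for their reliance on glycolysis.

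RNA sequencing was done on mouse fetal liver cells taken at E12.5 to E13.5 from a B6J.129(Cg) strain. Its allele Gt(ROSA)26Sortm1.1 (Fezh/J) expresses cas9* and EGFP from the widely active CAG promoter. In 14 of the 17 libraries the cells carried the guide sgGata1 and are named Gata1s cells, after the short form of the megakaryocyte and erythroid transcription factor GATA1. The second transgene was LUC (luciferase control, n = 3) or Arid3a (n = 3), both with doxycycline at 1 µg/mL for 48 h. It was sh-ctrl (control hairpin, n = 3), shArid3a (hairpin against the transcription factor gene Arid3a, n = 2, numbered 1 and 3) or miR-125b (n = 3) in cells given doxycycline at 1 µg/mL for 10 days. The WT cells (n = 3) carried sgLuc and shLuc and had no doxycycline. All 6 groups therefore share the Cas9 strain and a transgene pair, and no group is without transgenes. The labels do not say whether libraries of a group came from separate cultures or embryos, or whether embryos were pooled, so p-values measure only the spread between these libraries, which may be technical.

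Totals ran from 31339238 to 40859301 counts in the 14 Gata1s libraries and from 16362439 to 19212193 in WT. The 34 genes took 1.05% to 2.45% of all counts. Levels are CPM, read counts scaled to a common library size, after TMM scaling over all 17 libraries. Arid3a was at 53.3 to 74.5 CPM in the libraries labelled Arid3a and 59.3 to 64.7 in LUC (n = 3 each), so these ranges overlapped. Whether transcripts of the transgene were counted is not given in the sources used here. It was at 58.3 ± 7.49 CPM in sh-ctrl (SD, n = 3), 22.0 ± 0.68 in shArid3a (SD, n = 2) and 10.0 ± 1.75 in miR-125b (SD, n = 3). The hepatocyte gene Alb was at most 0.0686 CPM as a group mean, and 10 hepatoblast and hepatocyte markers summed to at most 20.5 CPM in any library. In contrast, 12 megakaryocyte and platelet markers summed to 3301 to 5805 CPM in the Gata1s libraries. In WT these markers summed to 1465 to 1735 CPM, and 12 myeloid markers to 15365 to 20637 CPM against 12.7 to 189 elsewhere. Mast cell and basophil markers summed to 1568 to 1786 CPM in WT and 31.1 to 472 elsewhere. In bulk libraries, fewer cells of a type and less RNA per cell cannot be told apart.

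One of the transgenes is a microRNA, so its sequence and its possible pairing sites in the genes are shown first. The mature mmu-miR-125b-5p (RefSeq, GRCm38.p6) is encoded at chr9:41581940-41581961 and chr16:77646279-77646300, both on the plus strand. Its seed (bases 2 to 8) is in capitals, and the reverse complement of the seed followed by A is the 8mer CTCAGGGA. The longest annotated 3′ UTR (GENCODE M21, GRCm38) of each gene was searched on the sense strand for CTCAGGGA, for CTCAGGG alone (7mer-m8) and for TCAGGGA alone (7mer-A1). An 8mer was found in 3 of the 34 genes, against 5.60% of 10139 protein-coding genes. The sites, with the match in capitals, lie at chr14:30574167-30574196 on the plus strand in Tkt, chr3:104656873-104656902 on the plus strand in Slc16a1 and chr2:11474031-11474060 on the minus strand in Pfkfb3. They are shown because these are the longest matches among the genes.
mmu-miR-125b-5p: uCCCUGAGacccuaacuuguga
Tkt: aggtaggttgtCTCAGGGAgatgacagaga
Slc16a1: tagagtttggcCTCAGGGAagccaataaag
Pfkfb3: cttgccagaggCTCAGGGAcaagttgcaca
Counting 7mer-m8 matches too, 4 of 34 genes had a site (15.8% of the 10139 genes), the fourth being Hk2. With 7mer-A1 matches (Gpi1, Pfkfb2, Pgam1) it was 7 of 34 (22.8%). The 10139 genes had at least 10 counts in every sh-ctrl, shArid3a and miR-125b library. Hk3 and Ldhb fell short of that count but stayed among the 34. A match is a stretch of letters and not a shown binding site.

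Per kilobase of the deposited gene length, the same 5 genes were among the 6 highest of the 34 in every group: Pkm (pyruvate kinase), Ldha (lactate dehydrogenase A), Eno1 (enolase), Pgk1 (phosphoglycerate kinase) and Aldoa (aldolase A). In sh-ctrl these were Pkm at 1112, Ldha at 766, Eno1 at 709, Pgk1 at 671 and Aldoa at 668 CPM per kb. At the other end, Hk3 and Ldhb were the lowest 2 in each of the 5 Gata1s groups, at most 0.347 CPM per kb, but not in WT. The summed level of the 34 genes was 12391 ± 1041 CPM in LUC, 11793 ± 2298 in Arid3a, 20439 ± 1104 in sh-ctrl, 26019 ± 2020 in shArid3a, 21356 ± 2357 in miR-125b and 13771 ± 1379 in WT (SD, n = 2 for shArid3a and 3 for the others). With this scaling, every library of the 3 groups with 10 days of doxycycline had a higher sum than every LUC, Arid3a and WT library. As a share of all counts, without TMM scaling, miR-125b library 2 (1.65%) was below WT library 1 (1.69%). By that share the 3 groups still lay above the LUC and Arid3a libraries (at most 1.58%).

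Several of these genes have near-copies in the genome, so reads can be split between loci. Of all 50-base stretches of the longest transcript, 82.5% were shared with other annotated genes for Gapdh (glyceraldehyde 3-phosphate dehydrogenase), 72.2% for Eno1, 68.0% for Pgk1, 41.5% for Pgam1 and 34.4% for Pkm. How reads with several matches were counted is not given in the sources used here, so the values of these 5 genes are uncertain. The share was 27.0% for Ldhb, 25.3% for Gpi1, 25.1% for Pfkfb2, 19.1% for Rpe, 17.1% for Pfkp and 16.6% for Ldha. It was at most 13.5% for the other genes. For Pfkfb2 it was shared with the overlapping Gm29427, and for Rpe with the overlapping Kansl1l. Gapdh, a usual reference gene, ran from 22.6 to 818 CPM over the 17 libraries and varied 10.6-fold within WT.

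With miR-125b set against sh-ctrl, Slc2a3, Pfkp and Pfkfb4, which act in glucose uptake and at the phosphofructokinase step, fell. The pentose phosphate genes Pgls, Tkt and Taldo1 rose, as did Pdk3 and the near-silent Hk3. Of the 33 genes tested (Ldhb had too few counts), 8 were called at an adjusted p under 0.05, 5 higher and 3 lower, where 24.4% of the 14004 genes tested were called, 12.1% higher and 12.2% lower. The share called among the 33 was thus near that of all genes. The libraries of both groups were fully apart for 15 genes, 9 above and 6 below, against 45.2% of all genes, 23.1% higher and 22.1% lower. Their median log2 fold change was 0.03, against −0.03 for all genes. Scaling by library totals moved the median of all genes to −0.22, and the share of higher genes among all called genes from 49.8% to 26.6%. In that scaling 8 of the 33 genes were called too, but 3 higher (Tkt, Hk3, Pgls) and 5 lower, with Taldo1 and Pdk3 lost and Pdk1 and Pgk1 added as lower. All p-values are edgeR quasi-likelihood values adjusted over all genes of the table by the Benjamini-Hochberg method, and fold changes are log2 with standard errors (SE). Cell type markers moved in the same comparison: of 12 megakaryocyte and platelet markers 5 fell and 1 rose, and of 10 erythroid markers 3 fell. Of 10 mast cell and basophil markers 2 rose, Mcpt8 (0.0874 to 17.2 CPM as group means) and Prss34 (0.171 to 24.5 CPM), and their summed range was 32.6 to 138 CPM in sh-ctrl and 79.1 to 472 in miR-125b. Both hepatoblast markers tested rose at low levels, Afp from 0.725 to 4.16 CPM and Apoa2 from 0.300 to 1.34 CPM. The megakaryocyte markers summed to 4156 to 5805 CPM in sh-ctrl and 3751 to 4705 in miR-125b, and none was at 0 in either group. Their part in the results on the 34 genes was not tested.

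Slc2a3 (ENSMUSG00000003153, chr6:122727809-122801640, minus strand, GRCm38) encodes GLUT3, a high-affinity glucose transporter. It was at 374, 170 and 349 CPM in sh-ctrl libraries 1, 2 and 3 and at 66.0, 56.0 and 88.4 CPM in the miR-125b libraries. Every miR-125b library lay below every sh-ctrl library, and its fold change was −2.10 on the log2 scale (SE 0.33, edgeR adjusted p = 0.00609). The gene overlaps Gm4482 on the same strand. Slc2a1, which encodes the widely expressed transporter GLUT1, was at 114, 62.9 and 131 CPM in sh-ctrl and 87.6, 58.8 and 71.3 in miR-125b, and these ranges overlapped (log2 fold change −0.52, adjusted p = 0.190). Per kilobase, GLUT1 messages made up 41.9% ± 2.74 of the sum of both transporters in sh-ctrl and 68.1% ± 5.39 in miR-125b (SD, n = 3 each). The lowest miR-125b share, 62.5%, was above the highest sh-ctrl share, 43.6%. Slc2a3 had no seed match in its longest 3′ UTR.

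Among the hexokinases, which trap glucose in the cell, Hk1 was the main form in the Gata1s cells and was not called (log2 fold change 0.11, adjusted p = 0.571), nor was Hk2 (−0.25, adjusted p = 0.508). Hk3 (ENSMUSG00000025877, chr13:55005985-55021385, minus strand), the form typical of myeloid cells, was near the limit of counting. It had 0, 2 and 0 counts in sh-ctrl libraries and 12, 17 and 22 in the miR-125b libraries, which is 0.43 to 0.62 CPM. The ratio of rates was 26.5, with an exact 95% interval of 6.96 to 225 that covers counting error only (edgeR adjusted p = 0.0362). Of the 12 myeloid markers 8 were tested, and 4 were called higher with miR-125b and 0 lower. Their sum was 71.7 to 118 CPM in sh-ctrl and 105 to 189 in miR-125b, with Mpo at 0.218 and 46.5 CPM as group means. Csf3r, Ly6c2 and S100a9 were at 0 in all sh-ctrl libraries, and no marker was at 0 in all miR-125b libraries. Their part in the Hk3 result was not tested.

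In upper glycolysis, Pfkp, the platelet form of phosphofructokinase, was at 296, 326 and 389 CPM in sh-ctrl and 180, 229 and 271 in miR-125b. The highest miR-125b library stayed below the lowest sh-ctrl library, and Pfkp fell by 0.59 on the log2 scale (SE 0.17, edgeR adjusted p = 0.0339). Pfkp (ENSMUSG00000021196, chr13:6579768-6648777, minus strand) overlaps Pitrm1 on the other strand, so without a stated use of strand its reads cannot be told apart from those of Pitrm1. The liver and muscle forms Pfkl and Pfkm had log2 fold changes of −0.16 and −0.10 and were not called. Gpi1 (glucose phosphate isomerase), Aldoa, Aldoc and Tpi1 (triose phosphate isomerase) lay between −0.37 and 0.28.

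The PFKFB enzymes set the level of fructose 2,6-bisphosphate, the strongest activator of phosphofructokinase. Pfkfb4 (ENSMUSG00000025648, chr9:108991778-109032228, plus strand) was at 20.3, 19.5 and 21.0 CPM in sh-ctrl and 4.96, 7.55 and 9.99 in miR-125b. The groups were far apart relative to their spread, and Pfkfb4 fell by 1.45 on the log2 scale (SE 0.26, edgeR adjusted p = 0.00805). Pfkfb2 (log2 fold change −0.68, edgeR adjusted p = 0.168) and Pfkfb3 (−0.07, adjusted p = 0.842) were not called. Pfkfb3 holds an 8mer seed match and Pfkfb2 a 7mer-A1 match. Pfkfb2 was at 3.39 to 9.69 CPM in miR-125b, below the 10.5 to 11.7 CPM of sh-ctrl in every library. The 3 genes called lower, Slc2a3, Pfkfb4 and Pfkp, had 0 seed matches between them. Whether seed matches go with the changes was not tested.

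In lower glycolysis edgeR called 0 of 6 genes, against the same 24.4% of all genes, and 2 had an unadjusted p under 0.05. Pgk1 was at 1697, 1389 and 1432 CPM in sh-ctrl and 1188, 950 and 1376 in miR-125b, so the groups did not overlap (log2 fold change −0.38, adjusted p = 0.119, or −0.57 and 0.0254 with library totals). Eno3, the muscle enolase, was at 32.6 to 35.2 CPM in sh-ctrl and 34.6 to 57.5 in miR-125b (0.42, adjusted p = 0.124). Pgam1 (−0.09), Eno1 (−0.09) and Pkm (0.03) lay close to 0 on the log2 scale.

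At the end of glycolysis, pyruvate dehydrogenase kinases inhibit pyruvate dehydrogenase and so hold pyruvate back from oxidation in the mitochondrion. Pdk3 (ENSMUSG00000035232, chrX:93764607-93832201, minus strand) was at 101, 119 and 103 CPM in sh-ctrl and 176, 143 and 148 in miR-125b, a rise of 0.51 on the log2 scale (SE 0.13, edgeR adjusted p = 0.0208). Pdk1, a HIF target, was at 133, 65.6 and 110 CPM in sh-ctrl and 61.6, 43.1 and 49.9 in miR-125b. These groups did not overlap either, but Pdk1 was not called (−1.02, SE 0.37, adjusted p = 0.0667). With the library number as a block it was called (−0.97, adjusted p = 0.0195), and so was Slc16a3 (−0.66, adjusted p = 0.0257), which exports lactate. Slc16a1, the other monocarboxylate transporter and a holder of 2 seed matches, was at 91.7 to 102 CPM in sh-ctrl and 109 to 133 in miR-125b (0.33, adjusted p = 0.0735). Ldha had a log2 fold change of 0.21 and was not called.

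The 7 pentose phosphate genes had a log2 fold change from 0.19 for Rpia to 0.70 for Pgls, all above 0 except that Rpia was at −0.0029 with library totals, and 3 were called higher, where 12.1% of all genes were. Pgls (ENSMUSG00000031807, chr8:71592176-71601092, plus strand), the lactonase of the oxidative arm, was at 258, 214 and 209 CPM in sh-ctrl and 400, 367 and 354 in miR-125b (0.70, SE 0.14, edgeR adjusted p = 0.00977). It overlaps Fam129c on the same strand. Tkt (ENSMUSG00000021957, chr14:30548359-30574722, plus strand), transketolase, was at 791, 1006 and 805 CPM in sh-ctrl and 1411, 1229 and 1323 in miR-125b (0.59, SE 0.15, edgeR adjusted p = 0.0203). For Pgls and Tkt each miR-125b library was above each sh-ctrl library. Tkt holds an 8mer seed match in its 3′ UTR and rose. Taldo1 (ENSMUSG00000025503, chr7:141392199-141402968, plus strand), transaldolase, was at 446, 563 and 444 CPM in sh-ctrl and 721, 622 and 697 in miR-125b (0.47, SE 0.15, edgeR adjusted p = 0.0489). Its groups were apart, but its call was at the threshold and was lost with the library number as a block (0.48, adjusted p = 0.0664). G6pdx (0.25), Pgd (0.29) and Rpe (0.28) were not called. The summed level of the 7 genes was 2251 ± 276 CPM in sh-ctrl and 3187 ± 202 in miR-125b (SD, n = 3 each), with 2569 as the highest sh-ctrl and 2988 as the lowest miR-125b library.

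Between libraries of the same number, on the log2 (CPM + 2) scale, the miR-125b to sh-ctrl difference of Slc2a3 was −2.47, −1.57 and −1.96 for numbers 1, 2 and 3. It was −1.68, −1.17 and −0.94 for Pfkfb4 and 0.63, 0.77 and 0.75 for Pgls. For Tkt it was 0.83, 0.29 and 0.72, and for Taldo1 0.69, 0.14 and 0.65. Each of these 5 genes kept its direction within every number, and the smallest values of Tkt and Taldo1 came from number 2. For number 2, G6pdx (−0.12) and Rpia (−0.10) were below 0. Slc2a3, Pfkfb4 and Pgls passed the threshold in all 18 alternative fits, and Pfkp in 14, Tkt and Pdk3 in 13 each, Hk3 in 12 of 17 and Taldo1 in 7 of 18. Of the 8 calls, Slc2a3, Pfkfb4 and Pgls alone remained when sh-ctrl replicate 3 was left out, in a fit that called 5.3% of all genes. The same 3 remained when miR-125b replicate 1 was left out (12.7% of all genes), where Eno3 was added (0.59, edgeR adjusted p = 0.0420). When sh-ctrl replicate 1 was left out 4 remained (17.6% of all genes), and 5 when miR-125b replicate 2 was (16.0%).

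**Figure D1:**
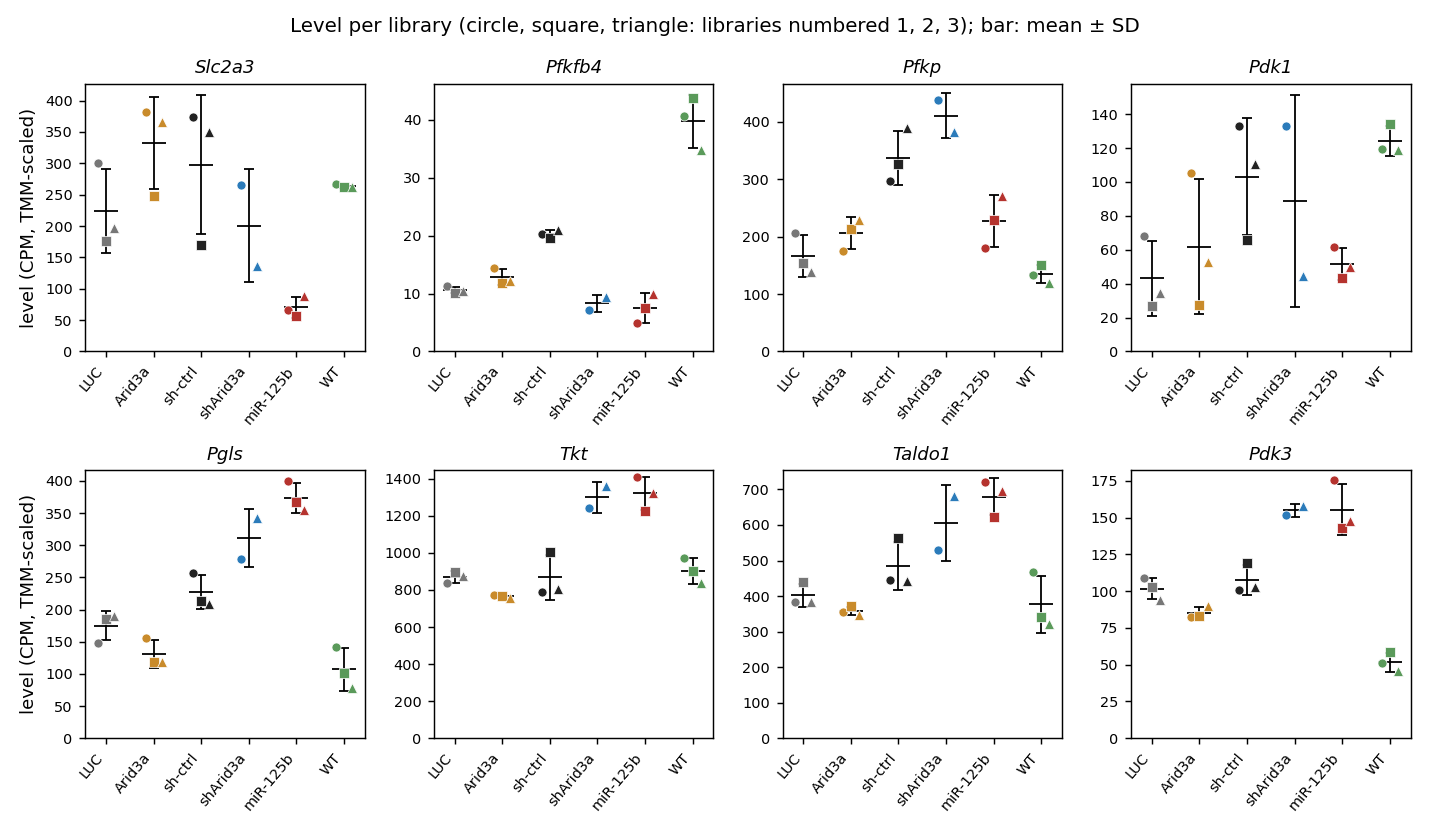
Level in CPM (TMM scaling over 17 libraries, linear axis from 0) of 8 genes in each library of the 6 groups, with the mean and SD as bars; circles, squares and triangles are libraries numbered 1, 2 and 3. Slc2a3 lies at 56.0 to 88.4 CPM in miR-125b and at 170 CPM or more in sh-ctrl, while Pgls, Tkt, Taldo1 and Pdk3 are higher in each miR-125b library than in each sh-ctrl library.

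The hairpin libraries, set against sh-ctrl, ask what a lowered Arid3a level changed. With 2 such libraries edgeR called 0 of the 33 genes tested, where 0.0857% of 14004 genes were called. At an unadjusted p under 0.05 there were 9 genes, against 25.8% of all genes. The median log2 fold change of the 33 genes was 0.23 against −0.02 for all genes, and 25 of 33 were above 0, against 48.4% of all genes. Scaling by library totals moved the median of all genes to −0.22 and that of the 33 genes to 0.05, with 19 of 33 above 0. The median of the 33 genes was 0.14 without shArid3a replicate 1 (19 of 33 above 0) and 0.38 without replicate 3 (24 of 33). Without all libraries numbered 1 it was 0.06 (20 of 33). Each of these fits leaves 1 hairpin library.

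The 5 genes with the smallest p-values were Pfkfb4, Pdk3, Tkt, Rpia and Pfkfb2. Pfkfb4 was at 7.22 and 9.38 CPM in shArid3a libraries 1 and 3, below the 19.5 to 21.0 CPM of sh-ctrl (log2 fold change −1.31, SE 0.30, edgeR adjusted p = 0.0989). Pfkfb2, the PFKFB form best known from heart, was at 5.06 and 4.32 CPM against 10.6, 10.5 and 11.7 in sh-ctrl (−1.24, SE 0.40, adjusted p = 0.116). Pfkfb3 was at 23.8 and 16.3 CPM against 26.2 to 29.7 (−0.48, adjusted p = 0.235). In all 3 PFKFB genes both hairpin libraries were below each control library.

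Pdk3 was at 152 and 158 CPM in shArid3a, above the 101 to 119 of sh-ctrl (0.51, SE 0.14, adjusted p = 0.103). Tkt was at 1241 and 1360 CPM against 791 to 1006 (0.56, SE 0.16, adjusted p = 0.104). Rpia, ribose 5-phosphate isomerase, was at 239 and 308 CPM against 170 to 196 (0.55, SE 0.16, adjusted p = 0.105). In lower glycolysis the 6 genes had values from 0.12 for Eno3 to 1.48 for Gapdh, and the lowest was −0.08 with library totals. Groups did not overlap for 15 of the 34 genes, 12 higher and 3 lower, against 44.2% of all genes, 22.9% higher and 21.3% lower.

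These values depended on the test. DESeq2 called 5 of the genes, Tkt, Pdk3 and Rpia higher and Pfkfb4 and Pfkfb2 lower, in a fit that called 11.4% of all genes. With no filter on low counts edgeR called 3, and 5.7% of all genes. Leaving out miR-125b replicate 1, which only lends its spread to this comparison, brought Pfkfb4 (adjusted p = 0.0409) and Pfkfb2 (adjusted p = 0.0470) past the threshold, where 2.2% of all genes passed. Over 18 alternatives the adjusted p of Pfkfb4 ran from 9.58e-04 to 0.547.

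The shArid3a and miR-125b comparisons share their 3 sh-ctrl libraries, so the values are only set side by side. The log2 fold change of Pfkfb4 was −1.31 with the hairpin and −1.45 with miR-125b, that of Pdk3 0.51 and 0.51, and that of Tkt 0.56 and 0.59. Slc2a3 had −0.58 and −2.10, Pfkp 0.27 and −0.59, and Pgk1 0.34 and −0.38.

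**Figure D2:**
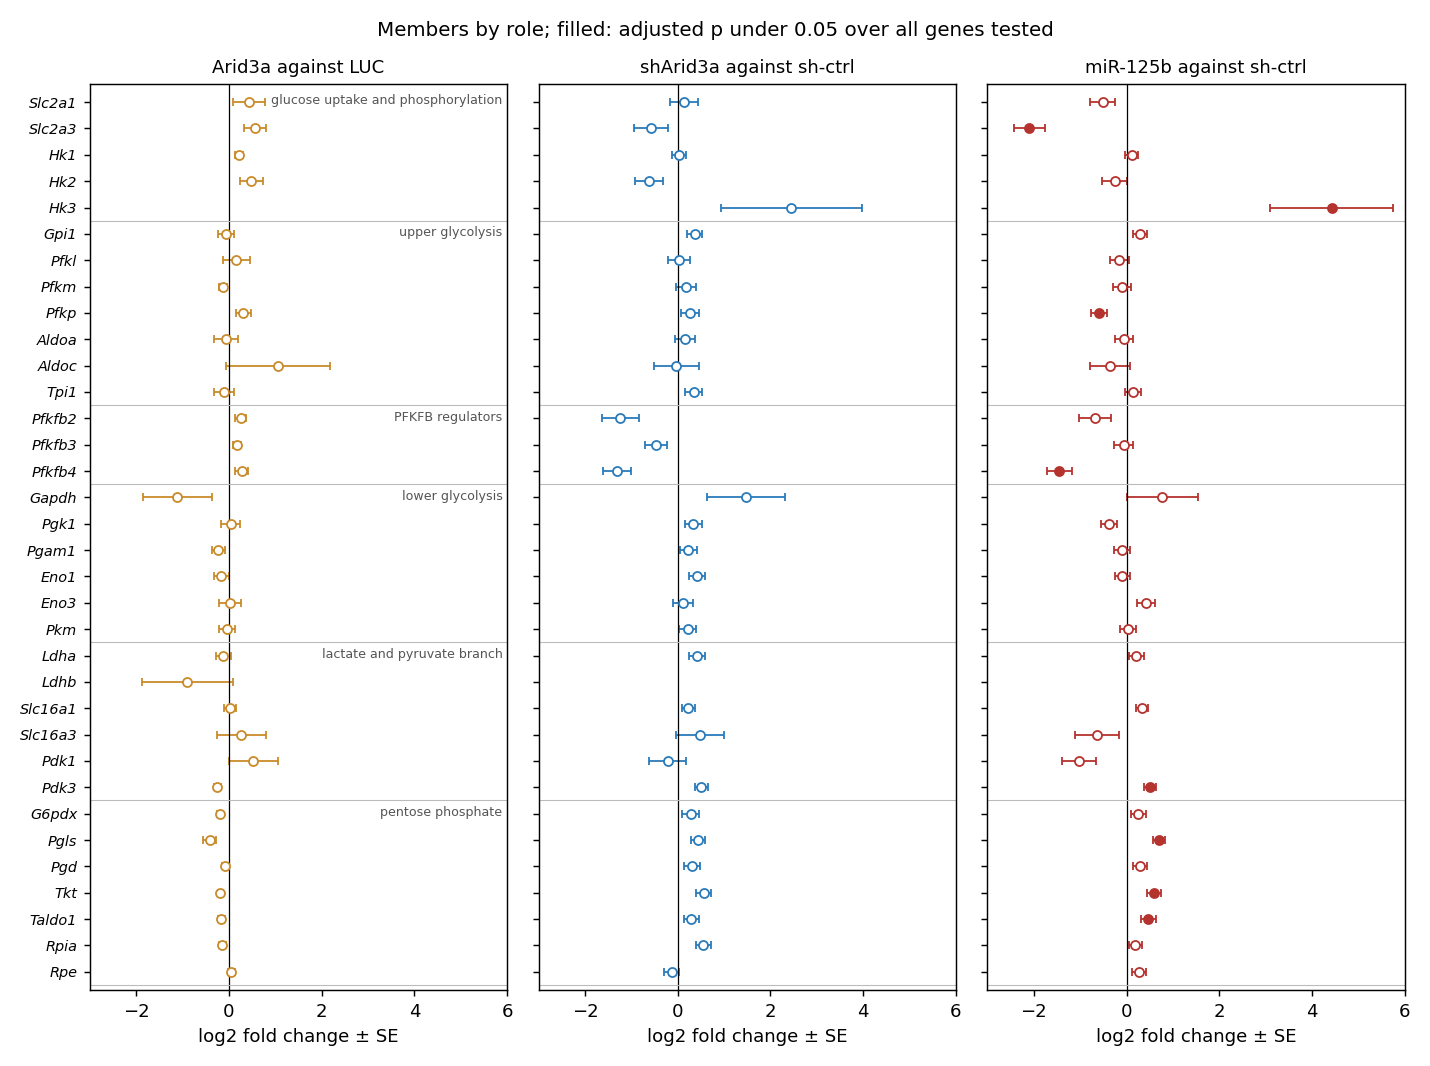
Log2 fold change with its SE (horizontal bars) of each gene tested, grouped by role, for Arid3a against LUC, shArid3a against sh-ctrl and miR-125b against sh-ctrl; filled points have an edgeR adjusted p under 0.05. Filled points occur only in the miR-125b panel, 3 below 0 and 5 above, and the 7 pentose phosphate genes all lie above 0 there.

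Set directly against the hairpin, miR-125b gave 0 called genes of 33 in edgeR, where 1.35% of 14004 genes were called. At an unadjusted p under 0.05 there were 6, 1 higher and 5 lower, against 14.5% of all genes, 7.32% higher and 7.2% lower. The groups were fully apart for 4 genes above and 6 below, against 29.5% of all genes, 13.7% higher and 15.8% lower. Pfkp was at 180 to 271 CPM with miR-125b and at 438 and 383 with the hairpin (log2 fold change −0.86, SE 0.19, edgeR adjusted p = 0.0600). Slc2a3 was at 56.0 to 88.4 against 265 and 137 CPM (−1.52, SE 0.35, adjusted p = 0.0702). Both were lower in every miR-125b library.

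Pgk1 (−0.72, SE 0.19, adjusted p = 0.0965) and Eno1 (−0.51, SE 0.18, adjusted p = 0.217) were lower in every miR-125b library too. Rpe, ribulose phosphate epimerase, had the opposite sign (0.41, SE 0.17, adjusted p = 0.301). The 7 upper glycolysis genes had values from −0.86 to −0.09, but without shArid3a replicate 1 these ran from −0.74 to 0.25, with 4 of 7 above 0. DESeq2 called 3 genes lower (Pfkp, Slc2a3 and Pgk1) and 5.26% of all genes, and over 18 alternatives the adjusted p of Pfkp ran from 0.00146 to 0.370 and that of Slc2a3 from 1.03e-06 to 0.510.

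Between the libraries labelled Arid3a and LUC, edgeR called 0 of 33 genes (Hk3 had too few counts), where 0% of 13495 genes were called. DESeq2 called 1, Tkt (−0.18, adjusted p = 0.0443), and 10.1% of all genes. At an unadjusted p under 0.05 there were 6, 2 higher and 4 lower, against 21.4% of all genes, 10.9% higher and 10.5% lower, and the median log2 fold change was −0.03 against 0.01. Groups did not overlap for 3 genes above and 4 below, against 27.6% of all genes, 12.4% higher and 15.2% lower. Arid3a itself overlapped between these groups, so no direction is read as an effect of Arid3a. The smallest p-values belonged to Pdk3, G6pdx, Tkt, Pgls and Hk1.

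Pdk3 was at 82.5, 82.9 and 90.2 CPM in the libraries labelled Arid3a and at 109, 103 and 94.0 in LUC (−0.26, SE 0.08, edgeR adjusted p = 0.124). G6pdx, the first enzyme of the pentose phosphate pathway, was at 173, 175 and 175 CPM against 200, 211 and 192 (−0.20, SE 0.06, adjusted p = 0.130). Tkt was at 772, 766 and 757 CPM against 838, 898 and 876 (−0.19, SE 0.06, adjusted p = 0.130). In these 3 genes the groups did not overlap and the differences were small.

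Pgls was at 156, 118 and 118 CPM against 149, 186 and 190 (−0.42, SE 0.15, adjusted p = 0.171), and library 1 of each group lay apart from the other two. Hk1 was at 388, 339 and 330 CPM against 305, 300 and 304 (0.22, SE 0.08, adjusted p = 0.177). Of the 7 pentose phosphate genes 6 had a negative value, and the summed level was 1931 ± 6.79 CPM against 2183 ± 90.6 (SD, n = 3 each). The count rested on 1 library: without Arid3a replicate 1, 6 of 34 genes were called, Pfkfb2 higher and Pgam1, Tkt, Pgls, Ldha and Eno1 lower. That fit called 23.2% of all genes. In that fit Pgls had −0.57 (edgeR adjusted p = 0.00407), Tkt −0.19 (adjusted p = 0.0294) and Ldha −0.31 (adjusted p = 0.0241).

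Libraries numbered 1 stood apart more widely. For 12 of the 33 genes with a mean of at least 5 CPM, the library numbered 1 was the highest of its group in 5 or 6 of the 6 groups. They were Slc2a3, Gpi1, Pfkl, Aldoa, Tpi1, Pgk1, Pgam1, Eno1, Pkm, Ldha, Slc16a3 and Pdk1. Among 10033 genes past the same minimum this held for 6.86%. It was 6 of 6 groups for Tpi1, Ldha and Slc16a3, while none of the 7 pentose phosphate genes reached 5 groups. Replicate numbers have no order, and the labels do not say what a number stands for, so what the libraries numbered 1 share was not tested.

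Slc16a3 showed it most. Its levels in libraries 1, 2 and 3 were 157, 66.5 and 76.2 CPM in LUC, 196, 45.7 and 117 in Arid3a and 296, 123 and 171 in sh-ctrl. They were 417 and 133 in shArid3a libraries 1 and 3, 201, 75.4 and 108 in miR-125b and 214, 188 and 145 in WT. In each group library 1 was the highest. Pdk1 in shArid3a was at 133 and 44.8 CPM in libraries 1 and 3.

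Of 17 HIF pathway genes outside glycolysis with enough counts, 2 were highest in library 1 in 5 or 6 groups, Bnip3 in 6 and Car9 in 5, and Hif1a was lowest in 5. Of 11 NRF2 genes, 0 were highest in 5 or 6 groups, and Nfe2l2, which encodes NRF2, was lowest in 6. The summed level of all 21 HIF genes in libraries 1, 2 and 3 was 1328, 905 and 935 CPM in LUC, 1436, 966 and 1230 in Arid3a and 1550, 1195 and 1765 in sh-ctrl. It was 1553 and 1137 CPM in shArid3a libraries 1 and 3, 1405, 1557 and 1354 in WT, and 926, 976 and 1080 in miR-125b. Library 1 was thus highest in LUC, Arid3a and shArid3a, and lowest in miR-125b. Leaving out all libraries numbered 1, an alternative chosen after seeing the data, 10 of 34 genes were called for Arid3a against LUC, 6 higher and 4 lower, and 25.6% of all genes. For shArid3a against sh-ctrl 6 of 33 were called, and 15.4% of all genes.

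**Figure D3:**
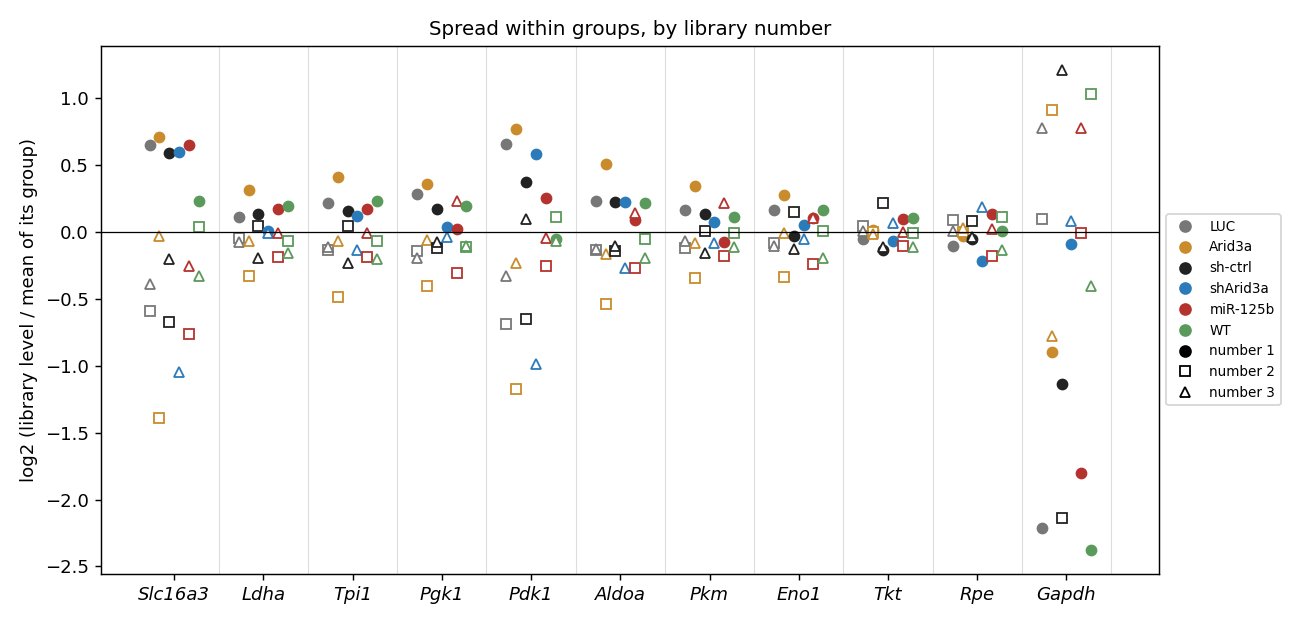
Log2 ratio of each library's level to the mean of its group for 11 genes; colours are the 6 groups, filled circles are libraries numbered 1 and open symbols those numbered 2 and 3. For Slc16a3, Ldha and Tpi1 the filled circle is the highest of its group in all 6 groups, whereas for Gapdh it is the lowest in 5.

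The promoters of the genes were looked at for the core letters of 2 factors named in the background. In windows from 250 bases before to 50 after each RefSeq start (GRCm38.p6), 33 of the 34 genes had a window (Slc2a3 had none). ACGTG, the core of the HIF site, was found on either strand in 18 of 33 genes, against 21.8% of 27025 genes and 30.3% of the 8445 genes measured here. TGACNNNGC, the core of the NRF2 site, was found in 5 of 33, against 17.2% of the genes measured. Ldha held 5 ACGTG matches, counted per strand, so that a palindromic CACGTG counts on each strand, and Slc16a3 held 2. Both genes were highest in library 1 of every group, and so was Tpi1, which held no ACGTG match. Apart from Ldha, the genes with more matches than Slc16a3 were Pfkm with 4 and Pfkfb2, Pfkfb3 and Slc16a1 with 3 each. Library 1 was highest in 2 of 6 groups for Pfkm, 1 for Pfkfb2, 3 for Pfkfb3 and 2 for Slc16a1. Whether such matches go with the library number was not tested. One stretch of Ldha and one of Slc16a3 are shown, with the match in capitals.
Ldha, chr7:46845747-46845771, plus strand: cccagcctacACGTGggttcccgca
Slc16a3, chr11:120949030-120949054, plus strand: ggcagcggtgACGTGcgcgggggac
Of the 8 genes called with miR-125b, Hk3 and Pdk3 held an ACGTG match, and Slc2a3 had no window.

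Isozyme shares, computed per kilobase within each enzyme family, set the groups apart in other ways. Hk1 made up 79.0% to 87.8% of hexokinase messages as group means in the Gata1s groups and 30.4% ± 1.60 in WT (SD, n = 3). In WT, Hk2 held 34.3% ± 3.63 and Hk3 35.3% ± 5.23, whereas Hk3 was at most 0.270% as a mean of a Gata1s group. Ldhb, the heart form of lactate dehydrogenase, was 2.34% ± 0.50 in WT and at most 0.061% as a mean of the other groups. Pdk1 was 44.2% ± 1.68 of the Pdk1 and Pdk3 sum in WT, 23.9% ± 7.74 in sh-ctrl and 9.80% ± 0.68 in miR-125b (SD, n = 3 each). Pfkfb4 was 44.7% ± 1.70 of the PFKFB messages in sh-ctrl and 25.4% ± 7.69 in miR-125b.

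**Figure D4:**
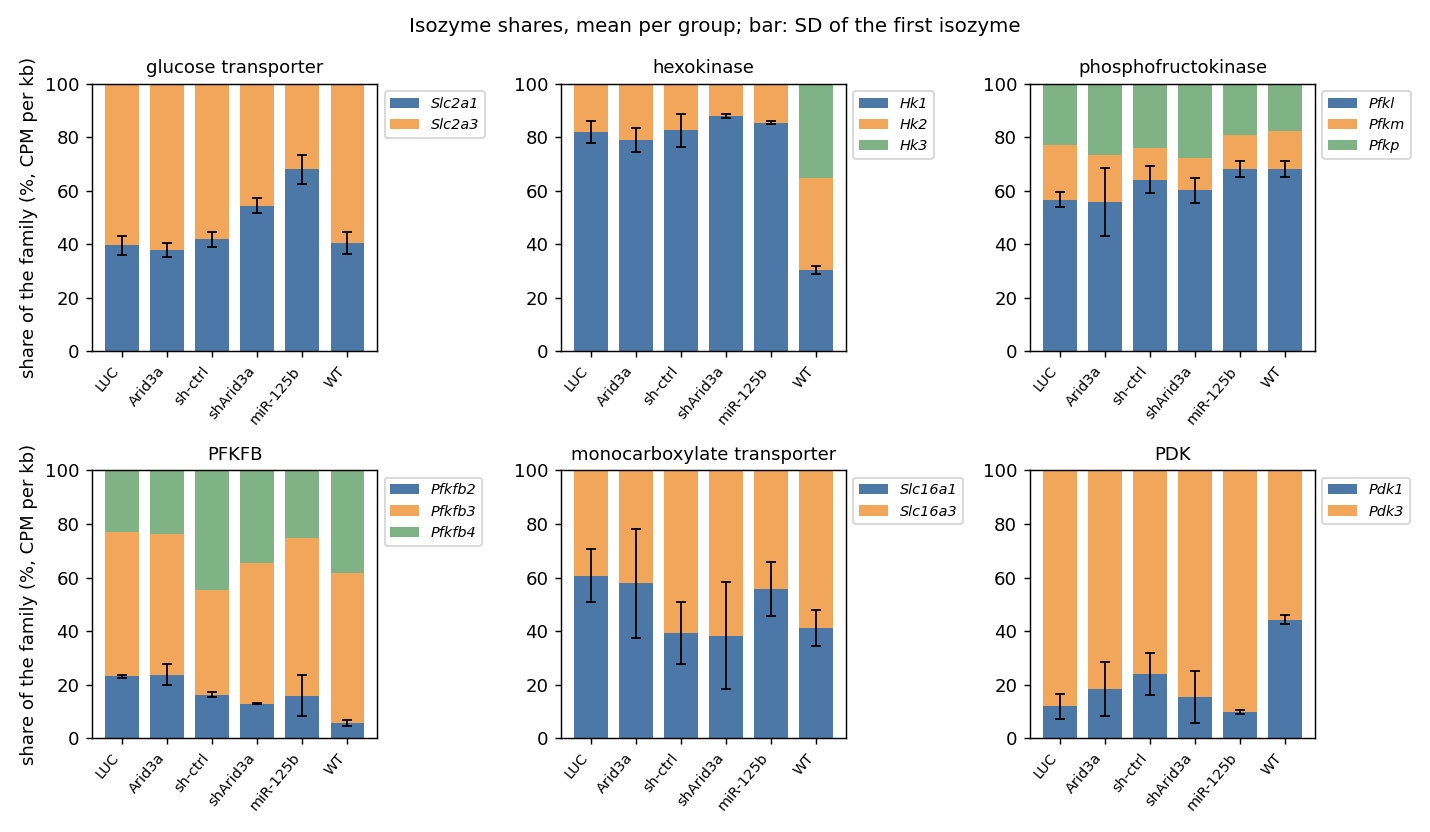
Share in percent of each isozyme in the summed level per kilobase of its family, as the mean of each group, for 6 families; bars show the SD of the first isozyme named. Slc2a1 is 68.1% of the glucose transporter pair in miR-125b and 41.9% in sh-ctrl, and Hk3 takes 35.3% of hexokinase in WT alone.

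The groups of different tables differ in doxycycline time, transgene and table at once, so these cannot be told apart and no test was made. Each sh-ctrl library was above each LUC library for 16 of the 34 genes and below for 5, against 19.8% and 23.5% of 10033 genes. Of the 16, all but Pgls and Taldo1 lie outside the pentose phosphate pathway, which holds only 7 of the 34 genes. The 5 below were Pfkfb2, Pfkfb3, Ldhb, Slc16a1 and Rpe, of which Rpe alone is a pentose phosphate gene. Aldoa was at 2511 ± 362 CPM in sh-ctrl and 1044 ± 158 in LUC (SD, n = 3 each), Pkm at 2889 ± 288 and 1481 ± 158, and Aldoc, the brain aldolase, at 66.8 and 9.29 CPM. Tkt, at 867 ± 120 and 870 ± 30.1 CPM, did not differ in this way.

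WT libraries were above all 14 others for 7 of the 34 genes and below all for 2, against 16.2% and 23.0% of 10033 genes. The 7 were Hk2, Hk3, Pfkfb3, Pfkfb4, Ldhb, Pgd and Rpe, and the 2 were Hk1 (199 to 223 CPM against 300 to 418) and Pdk3 (45.6 to 58.5 CPM against 82.5 to 176). In WT the myeloid markers were at 15365 to 20637 CPM in sum, and all 12 were above 1 CPM. Their part in these differences was not tested.

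Other genes of the same and neighbouring pathways were counted from lists. With miR-125b, 5 of 35 further glycolysis, glucose and pyruvate genes rose and 4 fell, among them Mdh1 (0.62, SE 0.12, edgeR adjusted p = 0.0106) and Mdh2 (0.85, adjusted p = 0.0109), malate dehydrogenases, and Pdk2 (−1.35, adjusted p = 0.0131). Of 12 further pentose phosphate and NADPH genes edgeR called 0, with 2 at an unadjusted p under 0.05. These shares stand beside 24.4% of all genes.

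Of 19 HIF pathway genes outside glycolysis, 7 fell and 1 rose, where 12.2% of all genes fell and 12.1% rose. The same shares stand beside the counts that follow. Vegfa, the endothelial growth factor, was at 126 ± 53.2 CPM in sh-ctrl and 22.2 ± 7.85 in miR-125b (SD, n = 3 each; −2.52, edgeR adjusted p = 0.00465). Ero1l, an oxidase of protein folding, had −1.12 (adjusted p = 0.0105) and Hif1an, an inhibitor of HIF, −0.78 (adjusted p = 0.0125). Of 12 NRF2 genes 1 rose, Prdx1, a peroxidase (1.00, adjusted p = 0.00784). Of 16 regulators of glycolytic expression 3 fell: Mlxip (−1.11, adjusted p = 0.00963), a glucose-sensing factor, Sp1 (−0.80, adjusted p = 0.0122) and Txnip (−1.13, adjusted p = 0.0221), which limits glucose uptake.

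With shArid3a edgeR called 0 genes of these lists, and the smallest adjusted p was 0.0951. At an unadjusted p under 0.05, 10 of the 35 further glycolysis genes were higher and 3 lower, and 7 of the 16 regulators were lower. Of all 14004 genes, 1867 were higher and 1749 lower at that threshold. In miR-125b against shArid3a, Ero1l (−1.30, edgeR adjusted p = 0.0323), Vegfa (−1.80, adjusted p = 0.0478) and Eno1b (−0.85, adjusted p = 0.0453), whose sequence is shared with Eno1, were called lower.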

How the data were processed

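RNA sequencing counts of 17 libraries were used. Per the submitters' processing notes, fastp, HISAT2 2.0.5 and featureCounts were used with the build mm10; the annotation release, the use of strand and the handling of reads with several matches are not given in the sources used here. The tables deposited by the authors hold raw counts per gene, whole numbers with no normalization. The 3 tables list 47069, 47069 and 47643 genes and were joined by Ensembl identifier. Gene lengths and positions (another deposited kind of value) are the authors'. Groups came from the labels.

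Each table was tested with edgeR 4.0.16 in R 4.3.3: TMM scaling within the table, filterByExpr, a quasi-likelihood fit with 1 term per group, and Benjamini-Hochberg adjustment over all genes tested, with a threshold of 0.05. The 3 groups of the knockdown table shared 1 fit. The script was tested on simulated data. DESeq2 1.42.0, other scalings and filters, a robust fit, a replicate block and each library left out in turn were alternatives. Depth, 16362439 to 40859301 counts per library, covers counting error only. The members and lists were chosen with earlier results of these data known. The genes named in each comparison are those called, filled up to 5 by the smallest p-value.

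Replicate numbers were checked by correlating deviations from group means over 10033 genes. Same-numbered sh-ctrl and miR-125b libraries had r of 0.507, 0.190 and 0.501, while sh-ctrl 3 and miR-125b 2 had 0.317. Numbers 1 and 3 thus pair in these groups, and number 2 is not shown to. Over the 33 genes of the list with a mean above 5 CPM, r was −0.019 for number 2 and 0.383 for sh-ctrl 3 with miR-125b 2. LUC and Arid3a had 0.079, 0.361 and −0.107. For sh-ctrl and shArid3a r was 0.385 for number 1 and −0.025 for number 3, while sh-ctrl 2 and shArid3a 3 had 0.472. The replicate block thus pairs shArid3a libraries, and number 2 of sh-ctrl and miR-125b, by a number that this check does not bear out. The main p-values come from the fit without the block. Libraries of a group differed by a chi-square per gene of 10.3 or more, so none was counted as a duplicate.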

Additional observations from a re-analysis of the deposited data

Results flagged for a closer look

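The WT libraries enter no tested comparison. In them 7 genes lay above every LUC and sh-ctrl library, the control groups of the other tables. The mean level in WT was 164 CPM for Hk2 (lowest WT library 148, highest control library 76.2) and 104 CPM for Hk3 (91.4 against 0.92). It was 90.6 CPM for Pfkfb3 (81.9 against 40.6) and 39.8 CPM for Pfkfb4 (34.8 against 21.0). Ldhb had a mean of 17.5 CPM (13.04 against 0.708), Pgd 395 CPM (374 against 324) and Rpe 71.7 CPM (65.3 against 46.8). Genotype, doxycycline, second transgene and table change together here and cannot be told apart. The 12 myeloid markers summed to 15365 to 20637 CPM in WT against 12.7 to 189 elsewhere, and their part was not tested.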

How the results depend on the processing

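Counts of called genes moved with the setting, and so did the share of all tested genes called in the same fit, given in brackets. For Arid3a against LUC the count was 0 (0%), and 1 with DESeq2 (10.1%) and 10 without all libraries numbered 1 (25.6%). With each library left out it was 0 to 6, the 6 being without Arid3a replicate 1 (23.2%). For shArid3a against sh-ctrl it was 0 (0.0857%), and 3 with no filter (5.7%) and 5 with DESeq2 (11.4%). With each sh-ctrl or miR-125b library left out it was 0 to 2, the 2 being without miR-125b replicate 1 (2.2%). For miR-125b against sh-ctrl it was 8 (24.4%). With each sh-ctrl or miR-125b library left out it ran from 3 without sh-ctrl replicate 3 (5.3%) to 8 without sh-ctrl replicate 2 (20.7%). For miR-125b against shArid3a it was 0 (1.35%), and 5 with no filter (3.3%) and 1 with 10 counts in every library (1.92%). It was 3 with DESeq2 (5.26%) and 1 in the robust fit (1.66%). With each sh-ctrl or miR-125b library left out it was 0 to 1, the 1 being without sh-ctrl replicate 2 (1.11%) or without miR-125b replicate 3 (0.503%). The cause was not tested. Fits without a shArid3a library leave 1 sample in that group, assumed to vary like the others. No gene named by the rule changed sign in the alternatives run.

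In the fit with the replicate block, miR-125b against sh-ctrl had 9 called genes: Taldo1 was lost, and Pdk1 and Slc16a3 were added. The block changed no other call of a named gene. LUC and Arid3a numbers did not pair throughout. Over the 33 genes with a mean above 5 CPM, same-numbered libraries had r of 0.621, 0.899 and −0.452 for numbers 1, 2 and 3. With the block of these groups 0 genes were called. The summed level was 18569 CPM in sh-ctrl with TMM within each table, 22200 (library totals) or 23211 (within table) in shArid3a, 18183 (library totals) in miR-125b and 15623 (library totals) or 15624 (within table) in WT. Library totals shifted the median of all genes with miR-125b to −0.22. Hk3 and Ldhb were too shallow in the Gata1s libraries for a fold to be read closely.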
